A study of Mus musculus with 32 samples.

Results

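The genes described here copy the genome and carry cells from G1 into S phase. They are 47 genes listed by name, of the 21945 genes in the deposited RNA count table, and comprise 36 replication genes and 11 cyclins, cyclin-dependent kinases (CDKs), CDK inhibitors and E2f1. The list was not chosen by a measured value of any gene, but earlier results of these data were known when it was drawn up.

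Before S phase, the origin recognition complex, Cdc6 and Cdt1 load the ring of MCM helicase subunits onto DNA. Cdc45 and the GINS complex then switch the helicase on, primase and the polymerases copy both strands behind it, the PCNA clamp holds the polymerases on DNA, and nucleases and a ligase join the fragments of the lagging strand. Entry into this phase is set by D-type and E-type cyclins with their CDKs, which release E2F transcription factors from the retinoblastoma protein and are held back by the inhibitors p21 (Cdkn1a) and p27 (Cdkn1b).

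Ribosome-protected footprints (RPFs) and polyadenylated RNA were sequenced from MIN6 cells kept for 24 hours in 25 mM glucose or, for comparison, in 5.5 mM glucose. There were 8 cultures per concentration in 2 library batches of 4 (replicates 1 to 4 and 5 to 8), and each culture gave an RPF and an RNA library, 32 libraries in all. The cells of both groups were labelled wild type, shared the same medium with 15% fetal bovine serum, and received cycloheximide, which stops ribosomes on the mRNA, for 5 minutes before lysis. Replicates are separate biological samples by their labels. MIN6 is a mouse insulinoma line that was derived from a tumour expressing a viral T antigen in β cells. T antigens of this kind bind the retinoblastoma protein, so the G1/S control of the line is not that of a β cell in an islet. The line is usually grown at the higher of these concentrations and grows more slowly at lower glucose, according to the study. In bulk libraries, a change in the share of cells that are in S phase and a change in the RNA or footprints of each cell cannot be told apart.

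Levels are CPM (counts scaled to a common library total) after scaling by the trimmed mean of M-values (TMM), and changes are log2 ratios of 25 over 5.5 mM with their standard error (SE). A gene was called higher or lower when its adjusted p (edgeR's quasi-likelihood test, Benjamini-Hochberg over all genes tested) was under 0.01 for RNA and under 0.1 for RPFs. CPM is not corrected for gene length, so levels are compared between samples and not between genes.

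Some libraries stood apart. RNA libraries held 16423766 to 33623502 counts at 25 mM, against 3014785 to 17542565 at 5.5 mM. The 5 shallowest RNA libraries (5.5 mM replicates 2, 4, 6, 7 and 8) held at most 6907849 counts each, and Ins1 and Ins2, the insulin genes, took 0.159% to 1.09% of them, against 3.98% to 6.51% at 25 mM and 4.40% to 8.08% in the other 3 libraries at 5.5 mM. In these 5 libraries 6 of the 47 genes lay above and 21 below all 11 other RNA libraries, 12.8% and 44.7%, beside 20.3% and 24.1% of all 12365 genes tested. The RPF libraries held 363569 to 3283379 counts at 25 mM and 392529 to 7012999 at 5.5 mM. The RPF library labelled 25 mM replicate 8 lay nearer to the 5.5 mM mean than to the other 25 mM libraries in 80.5% of the 3199 genes called without it, and in 20 of the 21 replication and G1/S genes among them, against 7.85% to 23.5% of those genes for each other 25 mM library, all of which had helped to make the calls. Results are therefore given with and without these libraries.

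The β cell label was checked against marker genes. In RNA all 11 β cell markers were present in every library, but several differed widely between the groups or within 5.5 mM. Iapp, which encodes the hormone amylin, spanned 13972 to 20857 CPM at 25 mM, against 539 to 11637 CPM at 5.5 mM, and G6pc2, a glucose-6-phosphatase of islets, 1453 to 1964 CPM at 25 mM, against 53.0 to 1240 CPM at 5.5 mM. The transcription factor Nkx6-1 spanned 266 to 320 CPM at 25 mM, against 281 to 13973 CPM at 5.5 mM, and Pdx1, another such factor, 304 to 388 CPM at 25 mM, against 280 to 806 CPM at 5.5 mM. The 10 markers of other cells summed to 152 to 254 CPM at 25 mM, against 15.2 to 124 CPM at 5.5 mM, most of it Gcg (glucagon), with 127 to 234 CPM and 8.78 to 107 CPM. Their RPF sums were 210 to 507 CPM at 25 mM, against 148 to 258 CPM at 5.5 mM. Krt19, a keratin, was present in every library, at 13.6 to 29.3 RNA CPM at 25 mM, against 1.72 to 16.8 CPM at 5.5 mM. Krt19 footprints were at 47.4 to 83.5 CPM and 23.7 to 75.3 CPM, and those of Ppy at 6.71 to 104 CPM and 5.97 to 52.4 CPM. Cpa1, an acinar enzyme, was at 0 in all 16 RPF libraries and in all but 1 RNA library, and Ptprc, a leukocyte marker, was at 0 in 6 of 8 RNA libraries at 25 mM and in 7 of 8 at 5.5 mM. The part of the other cells in the results below was not tested.

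Many replication genes are classical E2F targets, so their promoters were searched for an E2F-type motif: TTTCCCGC, TTTCGCGC, TTTGGCGC or TTTGCCGC on either strand, in 250 bases before to 50 bases after each start in RefSeq (GRCm38.p6). A promoter was found for 38 of the 47 genes, and 13 of them held a match (34.2%), beside 30.5% of the further replication and G1/S genes listed at the end, against 704 of all 27025 genes with a promoter (2.60%). Of the 20 genes called in RPFs (below), 4 of the 6 higher ones had a promoter and 1 of these held a match, and 12 of the 14 lower ones had a promoter and 6 held a match. Among the 24 genes not called, 20 had a promoter and 5 held a match. A difference in share between these groups was not tested. The matches of the 7 called genes nearest to their start are shown 5′ to 3′ on the gene's strand because they show which form of the motif each gene holds. The match is in capitals, as the motif or its reverse complement, and matches on both strands can overlap.
Mcm3 (chr1:20820275-20820304, minus strand): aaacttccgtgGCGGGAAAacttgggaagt
Mcm6 (chr1:128359734-128359763, minus strand): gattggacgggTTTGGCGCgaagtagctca
Mcm7 (chr5:138171849-138171878, minus strand): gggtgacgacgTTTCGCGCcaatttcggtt
Gins3 (chr8:95633507-95633536, plus strand): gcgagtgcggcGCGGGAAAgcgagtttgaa
Pola1 (chrX:93632275-93632304, minus strand): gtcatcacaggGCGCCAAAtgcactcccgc
Pold1 (chr7:44548766-44548795, minus strand): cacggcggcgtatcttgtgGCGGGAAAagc
Lig1 (chr7:13278841-13278870, plus strand): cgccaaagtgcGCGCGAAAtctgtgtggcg
Gins3 was the one of these 7 with more footprints at 25 mM, and the other 6 had fewer. A match describes the letters of the window and is not evidence of binding.

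The footprints of these genes moved in both directions. Of the 44 genes tested in RPFs, 6 were higher at 25 mM, 14 were lower and 24 were not called, beside 15.5% of all 8709 genes called higher and 15.4% called lower. Their median log2 fold change was -0.015, against -0.0082 for all genes tested. The 6 that rose were the cyclins Ccnd2, Ccne1 and Ccne2 and the replication genes Rrm2, Gins3 and Fen1. The 14 that fell were 5 of the 6 MCM subunits, all 3 polymerase catalytic subunits in the list, and Lig1, Rpa1, Rrm1, Rfc1, Cdk4 and Cdkn1b. Orc1, Ccnd1 and Cdk6 had too few footprints to be tested. Without the library labelled 25 mM replicate 8, 6 were higher and 15 lower of 45 tested, beside 17.6% and 17.0% of all genes, and the 20 called genes were all called again in the same direction. All 20 also had the same sign in the first batch, as did the 19 that could be tested in the second. The libraries of both batches had together made the calls, so this agreement follows in large part from how the genes were picked. In the first batch 16 of the 20 were called, and in the second 1, or 12 without replicate 8. Among all genes, the first batch called 1152 higher and 978 lower of 10414. The second called 197 and 94 of 6751, or 787 and 761 of 6982 without replicate 8.

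**Figure D1:**
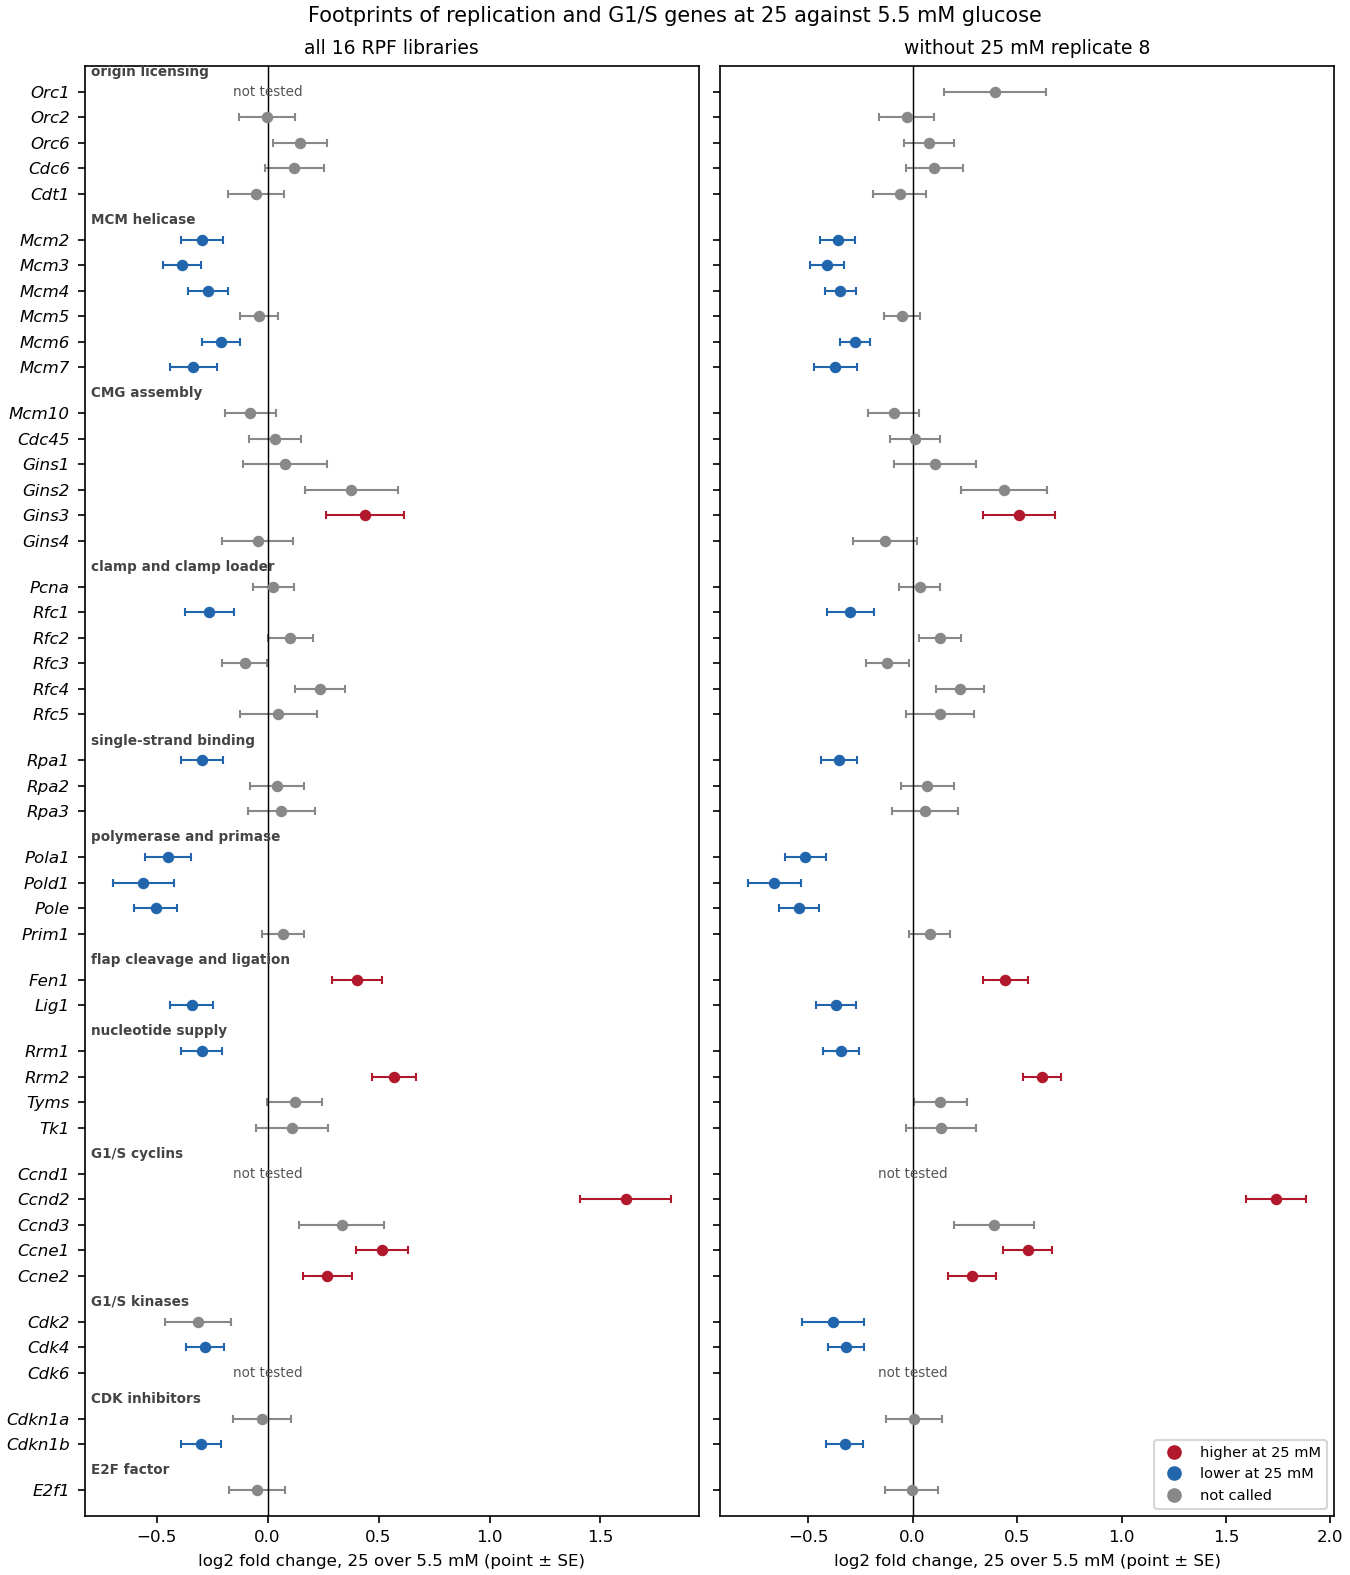
Footprint changes of the 47 genes by role. Each point is the log2 fold change of 25 over 5.5 mM with its SE, from all 16 RPF libraries on the left and without 25 mM replicate 8 on the right, coloured by call. Ccnd2 stands at 1.61 on the left, and the polymerase subunits Pold1, Pole and Pola1 are the lowest.

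The cyclins gave the largest rise. Ccnd2 encodes cyclin D2, a D-type cyclin of β cells that activates Cdk4 and Cdk6. Its RPF level was 19.7 CPM at the lowest, 91.0 at the median and 115 at the highest at 25 mM, against 21.8, 26.5 and 33.7 CPM at 5.5 mM. In 7 of the 8 libraries at 25 mM it lay above every library at 5.5 mM, and the library labelled 25 mM replicate 8 lay below them all. The log2 fold change was 1.61 (SE 0.20, adjusted p = 5.59e-06), a 3.06-fold rise, and 1.74 (SE 0.14, adjusted p = 1.85e-09) without that library. It was 1.83 (SE 0.18) in the first batch and 1.14 (SE 0.36) in the second, or 1.53 (SE 0.25) in the second without replicate 8.

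Ccne1, which encodes cyclin E1, the activator of Cdk2 at the G1/S boundary, had 43.7, 57.3 and 69.1 RPF CPM (lowest, median and highest) at 25 mM, against 28.6, 37.2 and 49.5 CPM at 5.5 mM. Again 7 of 8 libraries at 25 mM lay above all libraries at 5.5 mM. The rise was 0.52 on the log2 scale (SE 0.12, adjusted p = 0.00201). Its paralog Ccne2 had 71.0, 94.5 and 135 CPM at 25 mM, against 57.5, 84.8 and 98.9 CPM at 5.5 mM, and the groups overlapped, with 2 libraries at 25 mM above all of those at 5.5 mM. The change was 0.27 (SE 0.11, adjusted p = 0.0818). Ccnd3, cyclin D3, had 15.3, 24.4 and 40.3 CPM at 25 mM, against 13.9, 19.3 and 27.8 CPM at 5.5 mM, and was not called at 0.33 (SE 0.19, adjusted p = 0.213). Ccnd1, cyclin D1, had 0 footprint counts in all 8 libraries at 25 mM and at most 2 in any library at 5.5 mM, which is too few for a fold change.

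None of the 2 kinases and 2 inhibitors tested was called higher, beside 15.5% of all 8709 genes, a share at which so short a list may hold none. Cdk4, the partner of the D-type cyclins, had 126, 134 and 164 RPF CPM at 25 mM, against 149, 168 and 197 CPM at 5.5 mM. In 5 of 8 libraries at 25 mM it lay below every library at 5.5 mM. The change was -0.28 (SE 0.09, adjusted p = 0.0190). Cdk2, the partner of cyclin E, had 17.5, 23.6 and 36.7 CPM at 25 mM, against 18.2, 31.9 and 37.5 CPM at 5.5 mM, and the groups overlapped. Its log2 fold change was -0.31 (SE 0.15, adjusted p = 0.130), and without 25 mM replicate 8 it was called lower, at -0.38 (adjusted p = 0.0580). Cdk6, the other partner of the D-type cyclins, had at most 2 footprint counts in any library.

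Cdkn1b, the inhibitor p27, had 113, 130 and 144 RPF CPM at 25 mM, against 124, 155 and 184 CPM at 5.5 mM. The groups overlapped, with 2 libraries at 25 mM below all of those at 5.5 mM, and the change was -0.30 (SE 0.09, adjusted p = 0.0164). It was -0.40 (SE 0.11) in the first batch and -0.10 (SE 0.15) in the second. Cdkn1a, the inhibitor p21, had 28.8, 36.9 and 48.9 CPM at 25 mM, against 32.7, 36.6 and 43.4 CPM at 5.5 mM, a change of -0.03 (SE 0.13, adjusted p = 0.923). E2f1, a transcription factor that drives replication genes, had 33.6, 37.2 and 57.7 CPM at 25 mM, against 32.4, 42.5 and 57.3 CPM at 5.5 mM, and its log2 fold change was -0.05 (SE 0.13, adjusted p = 0.996). For E2f1 the groups overlapped over nearly all of their range, and for Cdkn1a 2 libraries at 25 mM lay above and 4 below every library at 5.5 mM.

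**Figure D2:**
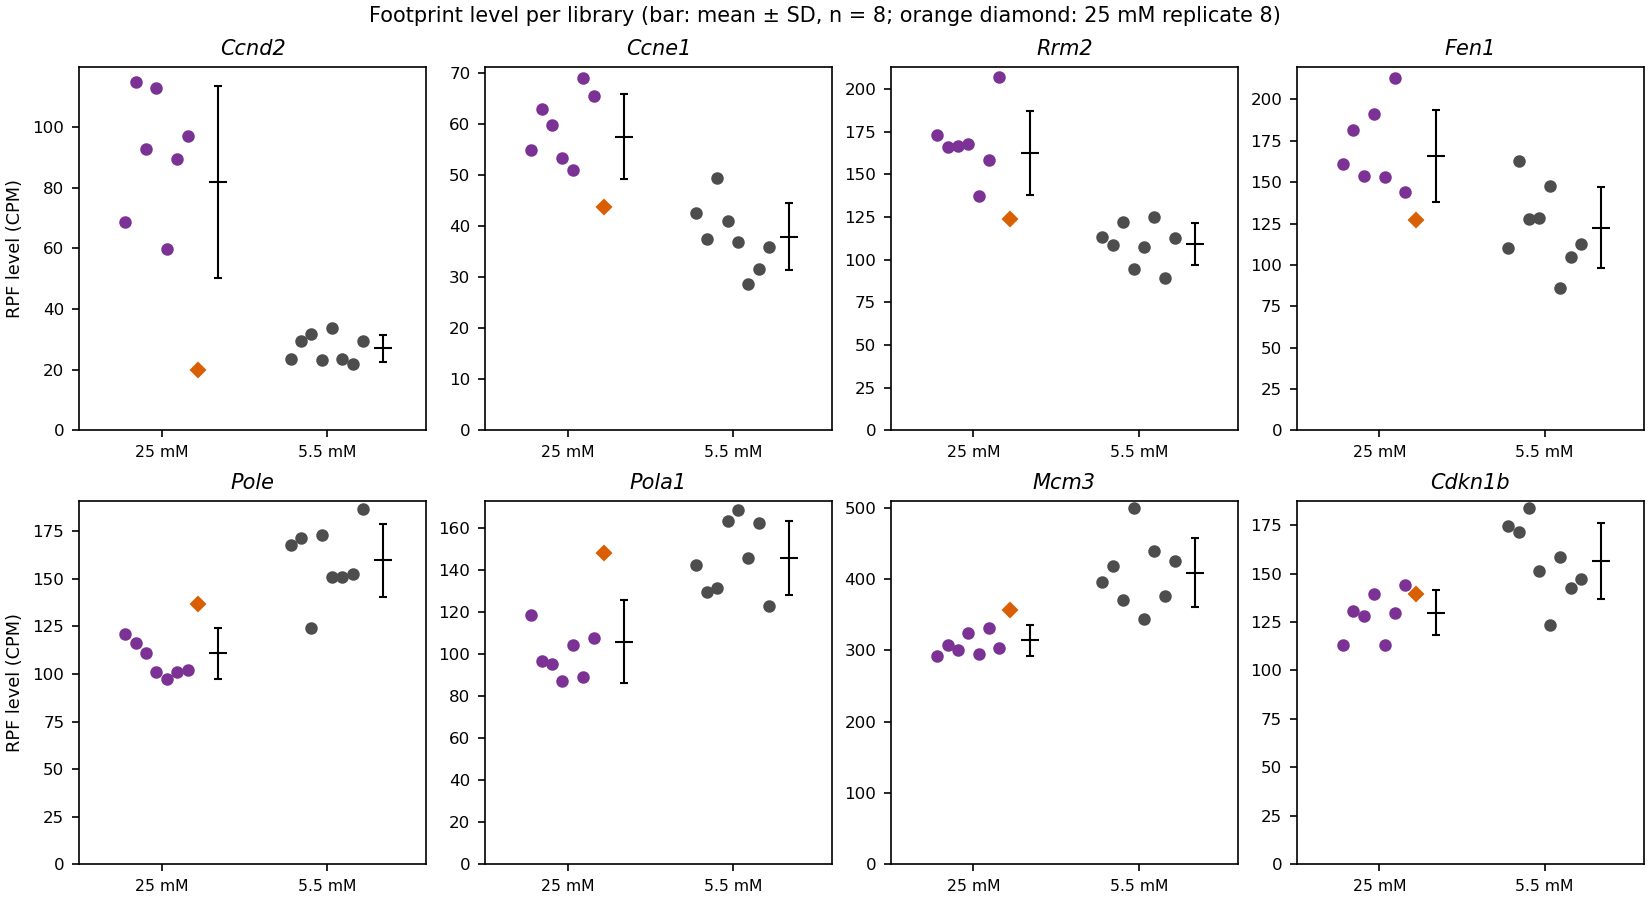
Footprint level of 8 called genes in each RPF library, in CPM, with 25 mM left of 5.5 mM and the mean ± SD of 8 libraries beside the points. The orange diamond is the library labelled 25 mM replicate 8, which lies below every 5.5 mM library for Ccnd2 (19.7 CPM, against 21.8 to 33.7 CPM).

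The MCM helicase, the ring that unwinds DNA at the fork, fell in 5 of its 6 subunits, with a median log2 fold change of -0.28 over the 6. Mcm3 had 292, 306 and 357 RPF CPM at 25 mM, against 344, 407 and 499 CPM at 5.5 mM. In 7 of 8 libraries at 25 mM it lay below every library at 5.5 mM. Its log2 change was -0.38 (SE 0.09, adjusted p = 0.00176), or -23.4%. Mcm4 had 228, 275 and 371 CPM at 25 mM, against 313, 335 and 373 CPM at 5.5 mM, with 7 libraries below all of the 5.5 mM group and the library labelled replicate 8 as the highest. Its change was -0.27 (SE 0.09, adjusted p = 0.0297).

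Mcm2 had 370, 451 and 604 CPM at 25 mM, against 497, 552 and 639 CPM at 5.5 mM (log2 fold change -0.30, SE 0.10, adjusted p = 0.0252). Mcm6 had 317, 355 and 463 CPM at 25 mM, against 375, 421 and 464 CPM at 5.5 mM (-0.21, SE 0.08, adjusted p = 0.0744). For each of these subunits 6 of 8 libraries at 25 mM lay below all of those at 5.5 mM. By batch, Mcm6 changed by -0.32 (SE 0.10) in the first and -0.05 (SE 0.14) in the second, and Mcm2 by -0.33 (SE 0.13) and -0.23 (SE 0.14). Mcm7 had 97.4, 135 and 194 CPM at 25 mM, against 150, 172 and 190 CPM at 5.5 mM, and both the lowest and the highest value were at 25 mM. Its change was -0.33 (SE 0.11, adjusted p = 0.0226), at -0.53 (SE 0.12) in the first batch and -0.03 (SE 0.15) in the second. Mcm5 was not called, with 329, 412 and 444 CPM at 25 mM, 345, 403 and 516 CPM at 5.5 mM and a change of -0.04 (SE 0.09, adjusted p = 0.806).

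None of the genes tested that load (4) or activate (6) this ring was called lower, beside 15.4% of all 8709 genes. At that share a list this short may hold none. The 4 licensing genes tested, Orc2, Orc6, Cdc6 and Cdt1, were not called by edgeR's test in either direction, and their log2 fold changes were -0.05 to 0.15. Of the 6 genes that assemble the active helicase, Mcm10, Cdc45 and Gins1 to Gins4, 1 was called. Gins3, a subunit of the GINS complex, had 8.46, 15.9 and 21.8 CPM at 25 mM, against 7.81, 12.4 and 16.3 CPM at 5.5 mM. The groups overlapped, with 4 of 8 libraries at 25 mM above all of those at 5.5 mM, and the change was 0.44 (SE 0.18, adjusted p = 0.0696). It rests on few reads, from 3 to 82 counts per library. Gins2, of the same complex, was not called at 0.38 (SE 0.21, adjusted p = 0.198).

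The catalytic subunits of the 3 replicative polymerases had the lowest log2 fold changes of the 44 genes. Pole, the leading-strand polymerase, had 97.6, 107 and 137 RPF CPM at 25 mM, against 124, 160 and 187 CPM at 5.5 mM. In 7 of 8 libraries at 25 mM it lay below every library at 5.5 mM. It fell by 0.50 (SE 0.10, adjusted p = 0.000479), or -29.5%, and by 0.46 (SE 0.13) in the first batch and 0.52 (SE 0.16) in the second. Pola1, which extends the primers, had 87.3, 100 and 148 CPM at 25 mM, against 123, 144 and 169 CPM at 5.5 mM, with 7 libraries below all of the 5.5 mM group. Its change was -0.45 (SE 0.10, adjusted p = 0.00240). Pold1, the lagging-strand polymerase, had 55.0, 97.4 and 142 CPM at 25 mM, against 116, 138 and 181 CPM at 5.5 mM, with 6 libraries below all of the 5.5 mM group. Its change was -0.56 (SE 0.14, adjusted p = 0.00413), or -32.2%. Prim1, the catalytic subunit of primase, was not called, at 0.07 (SE 0.09, adjusted p = 0.651).

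In 2 pairs of genes that act together, the partners moved in opposite directions. Ribonucleotide reductase makes the deoxynucleotides for DNA from the large subunit Rrm1 and the small subunit Rrm2. Rrm2 had 124, 166 and 207 RPF CPM at 25 mM, against 89.2, 111 and 125 CPM at 5.5 mM, and 7 of 8 libraries at 25 mM lay above all of those at 5.5 mM. It rose by 0.57 (SE 0.10, adjusted p = 0.000143), or 48.5%. Rrm1 had 399, 465 and 577 CPM at 25 mM, against 538, 574 and 649 CPM at 5.5 mM, with 6 libraries below the 5.5 mM group, and its change was -0.30 (SE 0.09, adjusted p = 0.0178).

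The other pair finishes the lagging strand. Fen1, the nuclease that cuts the flap of an Okazaki fragment, had 127, 158 and 213 CPM at 25 mM, against 85.9, 120 and 163 CPM at 5.5 mM. The groups overlapped, with 3 libraries at 25 mM above all of those at 5.5 mM, and the rise was 0.40 (SE 0.11, adjusted p = 0.00997). Lig1, the ligase that seals the nick, had 151, 172 and 197 CPM at 25 mM, against 177, 216 and 265 CPM at 5.5 mM, with 4 libraries below the 5.5 mM group. It changed by -0.34 (SE 0.10, adjusted p = 0.0117). The difference between the partners of a pair was not tested.

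Of the clamp and its loader, Pcna and Rfc1 to Rfc5, 1 was called. Rfc1, the large subunit of the loader, had 64.6, 78.3 and 101 CPM at 25 mM, against 76.9, 97.4 and 117 CPM at 5.5 mM (-0.26, SE 0.11, adjusted p = 0.0895), and 4 libraries at 25 mM lay below all of the 5.5 mM group. Pcna was not called, with 124, 154 and 183 CPM at 25 mM, 132, 151 and 180 CPM at 5.5 mM and a change of 0.03 (SE 0.09, adjusted p = 0.885). Rpa1, the large subunit of the protein that coats single-stranded DNA, had 226, 295 and 351 CPM at 25 mM, against 283, 371 and 395 CPM at 5.5 mM. It overlapped between the groups, with 3 libraries at 25 mM below all of the 5.5 mM group, and changed by -0.30 (SE 0.09, adjusted p = 0.0230). The smaller subunits Rpa2 and Rpa3 and the thymidine enzymes Tyms and Tk1 were not called, with log2 fold changes of 0.04 to 0.12.

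The 24 genes not called in RPFs had log2 fold changes of -0.31 to 0.38 with SEs of 0.09 to 0.21, so changes of the size seen in several called genes were not detectable in the less precise of them. Fewer genes were called with fewer cultures. Without the RPF libraries of the 5 cultures whose RNA libraries were shallow, 2 genes were higher and 2 lower, beside 6.27% and 4.75% of all genes. Ccnd2, Rrm2, Pola1 and Pole were called, and all 20 genes kept their sign. The libraries left in had also helped to make the 20 calls, so the kept signs are not separate support.

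In RNA, 10 of the 46 genes tested were higher at 25 mM, 8 were lower and 28 were not called, beside 16.4% and 24.2% of all 12365 genes. Their median log2 fold change was 0.78, against 0.12 for all genes tested. Without the 5 shallowest libraries, all 47 genes were tested and 5 were higher and 4 lower, beside 10.4% and 19.2% of all genes, with a median of 0.08 against -0.003. Of the 18 genes called with all libraries, 5 were called in the same direction without the 5 libraries. Orc2, Cdc6, Mcm4, Mcm5, Mcm10, Cdc45, Pcna, Rfc4, Rrm2 and Ccnd3 were higher with all libraries, and Rfc1, Pola1, Pold1, Pole, Lig1, Rrm1, Ccnd1 and E2f1 were lower. With scaling by library size in place of TMM, which moved the median of all genes by 0.71, 9 were higher and 2 lower, and all genes split into 2175 higher and 1342 lower, against 2032 and 2998 with TMM. In the first batch alone none of the 46 genes passed edgeR's test (8 had an unadjusted p under 0.05), and in the second batch alone 13 were higher and 7 lower. The first batch alone called 0 of all 12470 genes tested, and the second called 2121 higher and 2531 lower of 12658.

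**Figure D3:**
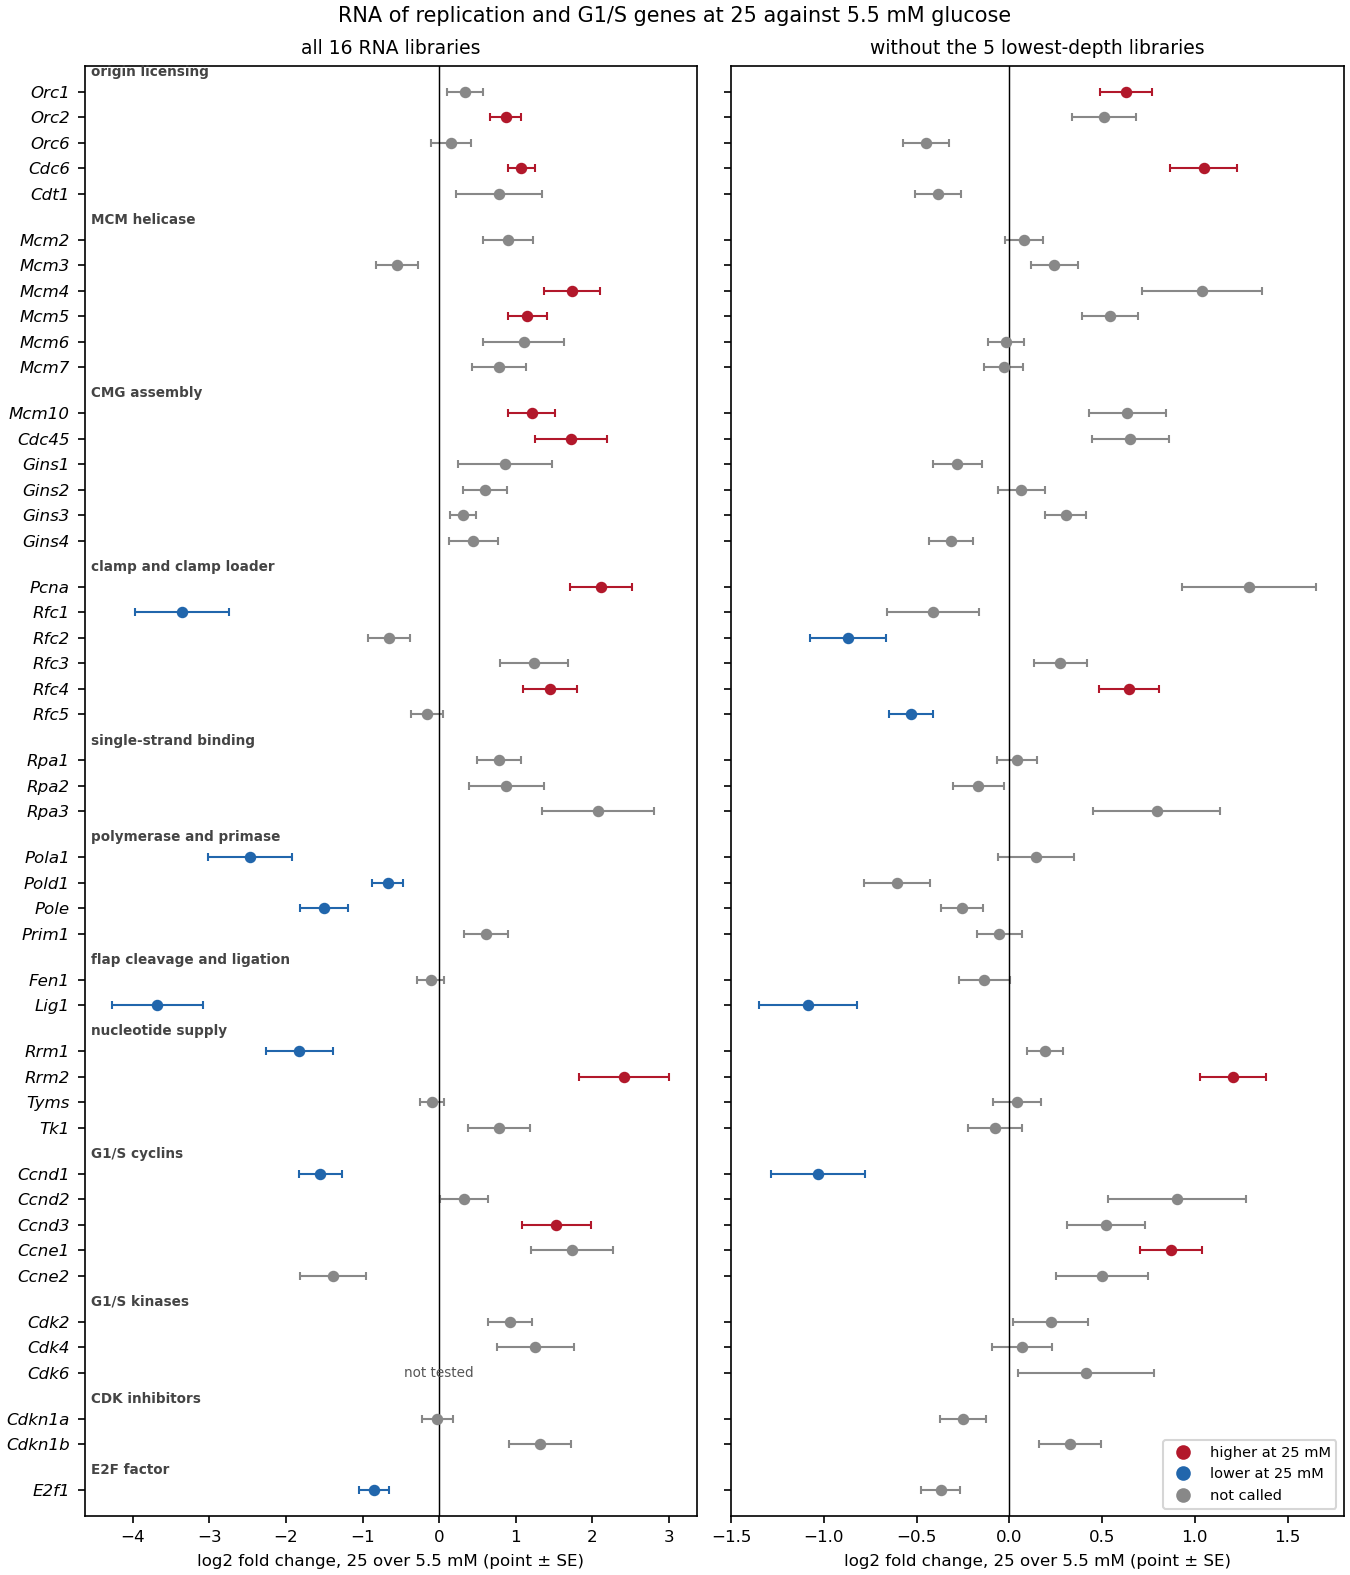
RNA changes of the 47 genes by role, from all 16 RNA libraries on the left and without the 5 shallowest libraries at 5.5 mM on the right. Points are log2 fold changes of 25 over 5.5 mM with their SE and are coloured by call. The range of -3.68 to 2.41 on the left narrows to -1.09 to 1.29 on the right, and the 2 panels have their own axes.

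Cdc6, the loader of the MCM ring, held its RNA change in both fits. Its RNA level was 29.9 CPM at the lowest, 34.1 at the median and 35.8 at the highest at 25 mM, against 12.8, 14.8 and 23.0 CPM at 5.5 mM. Every library at 25 mM lay above every library at 5.5 mM. The change was 1.07 on the log2 scale (SE 0.17, adjusted p = 0.000129), and 1.05 (SE 0.18, adjusted p = 0.00129) without the 5 libraries. Its footprints did not follow, with 31.0, 46.4 and 64.6 RPF CPM at 25 mM, 31.7, 44.7 and 63.4 RPF CPM at 5.5 mM and a change of 0.12 (SE 0.13, adjusted p = 0.559).

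The RNA of Rrm2 and Ccne1 rose in the direction of their footprints. Rrm2 had 88.5, 110 and 128 RNA CPM at 25 mM, against 38.9 to 59.7 CPM in the 3 deeper libraries at 5.5 mM and 1.11 to 8.10 CPM in the 5 shallow ones. Its log2 fold change was 2.41 (SE 0.59, adjusted p = 0.00263) with all libraries and 1.21 (SE 0.18, adjusted p = 0.000680) without the 5. Ccne1 had 50.1, 53.8 and 61.3 CPM at 25 mM, against 19.5 to 42.1 CPM in the deeper libraries at 5.5 mM and 0 to 19.6 CPM in the shallow ones. It was called without the 5 libraries (0.87, SE 0.17, adjusted p = 0.00200) and missed the threshold with them (1.73, SE 0.54, adjusted p = 0.0115). For both genes all 8 libraries at 25 mM lay above all 8 at 5.5 mM.

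Pcna and Rfc4, the clamp and a subunit of its loader, also did not overlap between the groups in RNA. Pcna had 134, 157 and 182 RNA CPM at 25 mM, against at most 125 CPM in the 3 deeper libraries at 5.5 mM and 10.0 to 28.5 CPM in the shallow ones. The log2 fold change was 2.11 (SE 0.40, adjusted p = 0.000421), and 1.29 (SE 0.36, adjusted p = 0.0119) without the 5 libraries, which missed the threshold. Rfc4 was called in both fits, at 1.45 (SE 0.35, adjusted p = 0.00248) and 0.65 (SE 0.16, adjusted p = 0.00750). Orc1, the largest origin recognition subunit, was called higher without the 5 libraries only (0.63, SE 0.14, adjusted p = 0.00400), at 4.77 to 6.92 CPM at 25 mM, against 3.08 to 4.54 CPM in the deeper libraries at 5.5 mM.

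Mcm4 and Mcm5 had more RNA at 25 mM. Mcm4 had 82.5, 101 and 116 RNA CPM at 25 mM, against 24.7 to 85.1 CPM in the deeper libraries at 5.5 mM and 10.0 to 31.0 CPM in the shallow ones. Its log2 fold change was 1.73 (SE 0.36, adjusted p = 0.000807), and 1.04 (SE 0.32, adjusted p = 0.0189) without the 5 libraries. Mcm5 had 124, 145 and 159 CPM at 25 mM, against 65.2 to 130 CPM in the deeper libraries and 25.9 to 73.8 CPM in the shallow ones. Its change was 1.15 (SE 0.25, adjusted p = 0.00122), and 0.54 (SE 0.15, adjusted p = 0.0116) without the 5. Neither passed 0.01 without those libraries. Their RNA and footprints differed in direction for Mcm4, whose footprints fell.

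Among the genes with less RNA, the changes were smaller without the shallow libraries. Lig1 had 101, 108 and 124 RNA CPM at 25 mM, against 101 to 435 CPM in the 3 deeper libraries at 5.5 mM and 1524 to 2783 CPM in the 5 shallow ones. It fell by 3.68 (SE 0.59, adjusted p = 0.000122) with all libraries and by 1.09 (SE 0.26, adjusted p = 0.00625) without the 5. Rfc1 had 48.9, 57.1 and 70.0 CPM at 25 mM, against 36.3 to 158 CPM in the deeper libraries and 521 to 1541 CPM in the shallow ones, and its change of -3.36 (SE 0.61, adjusted p = 0.000286) became -0.41 (SE 0.25, adjusted p = 0.170). Pole had 32.7, 35.5 and 37.9 CPM at 25 mM, against 34.3 to 50.4 CPM and 116 to 183 CPM in the deeper and shallow libraries at 5.5 mM, with a change of -1.50 (SE 0.31, adjusted p = 0.000751) and of -0.26 (SE 0.12, adjusted p = 0.0772) without the 5.

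For Pola1 and Rrm1, called lower with all libraries, the sign turned without the 5. Pola1 had 29.8, 37.7 and 46.6 RNA CPM at 25 mM, against 14.9 to 51.0 CPM in the deeper libraries at 5.5 mM and 142 to 485 CPM in the shallow ones, with log2 fold changes of -2.47 (SE 0.55, adjusted p = 0.00128) and 0.14 (SE 0.20, adjusted p = 0.561). Rrm1 had -1.83 (SE 0.44) with all libraries and 0.19 (SE 0.10, adjusted p = 0.113) without the 5. Rfc2 and Rfc5, further subunits of the clamp loader, were called lower only without the 5 libraries, at -0.87 (SE 0.21, adjusted p = 0.00553) and -0.53 (SE 0.12, adjusted p = 0.00417).

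**Figure D4:**
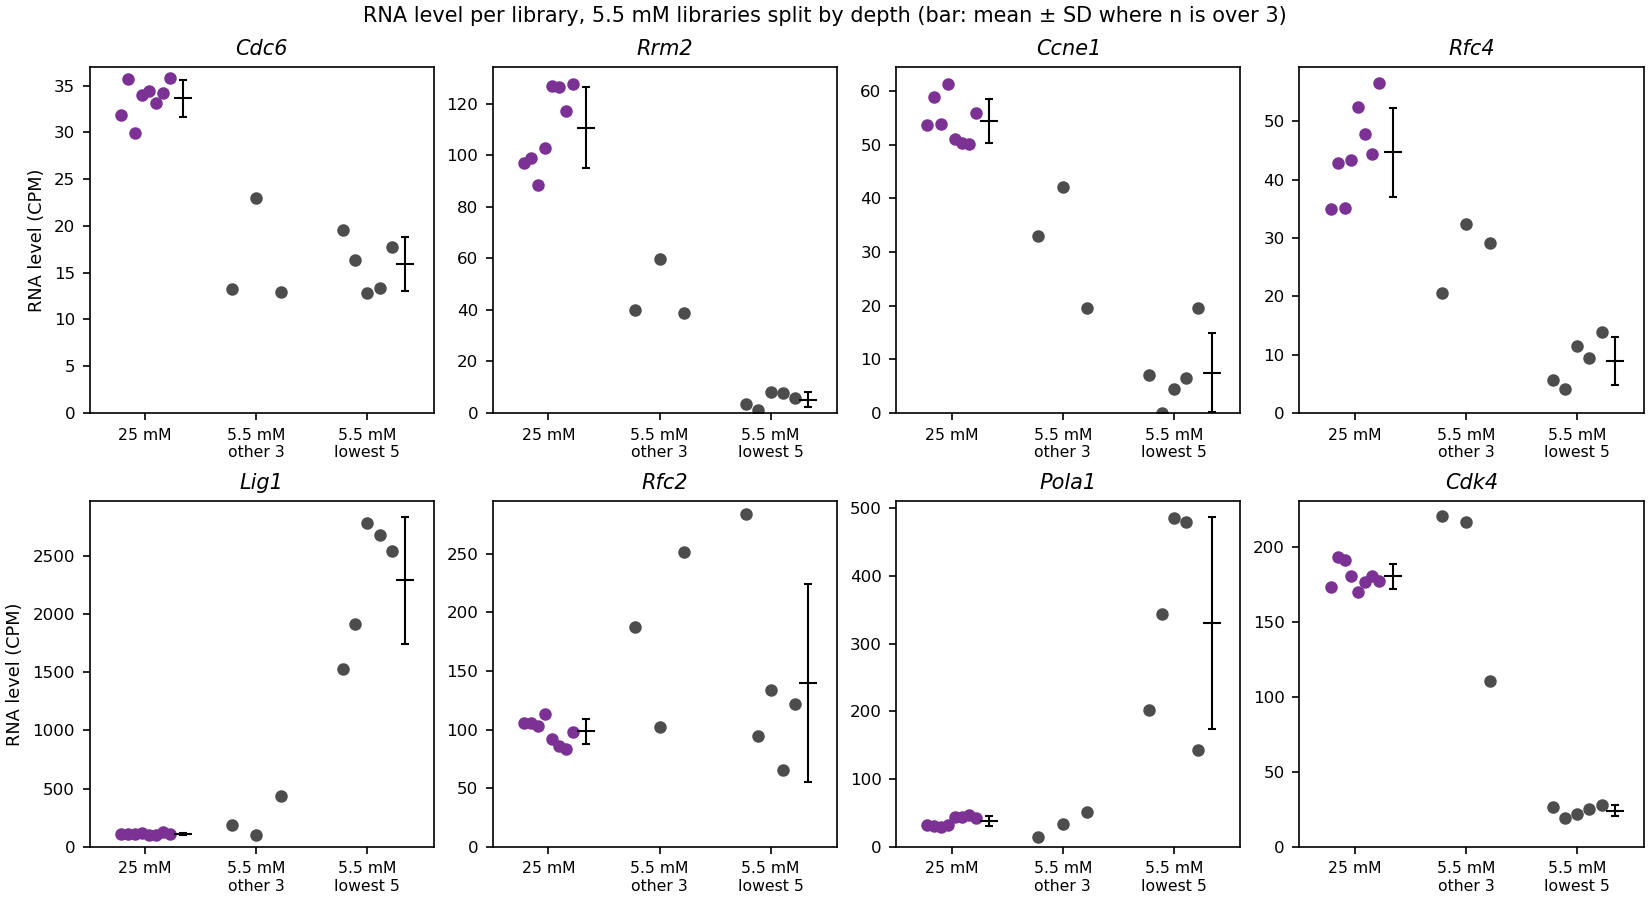
RNA level of 8 genes in each RNA library, in CPM, with 25 mM on the left, the 3 deeper libraries at 5.5 mM in the middle and the 5 shallowest on the right. Cdc6 is separated from both 5.5 mM sets, whereas Cdk4 is at 170 to 194 CPM at 25 mM, 111 to 221 CPM in the deeper and 19.3 to 27.8 CPM in the shallow libraries.

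Among the cyclins, Ccnd1 had less RNA at 25 mM, at 0.79, 1.11 and 1.61 CPM, against 1.38, 3.56 and 5.43 CPM at 5.5 mM. The groups overlapped, with 6 of 8 libraries at 25 mM below all of those at 5.5 mM, and the change was -1.55 (SE 0.28, adjusted p = 0.000273), or -1.03 (SE 0.26, adjusted p = 0.00681) without the 5 libraries. Ccnd2, whose footprints rose most, had 154, 180 and 221 RNA CPM at 25 mM, against 49.3, 171 and 244 CPM at 5.5 mM. Its 3 deeper libraries at 5.5 mM spanned 49.3 to 214 CPM and were split. Those of replicates 1 and 3, in the first batch, lay below every library at 25 mM, in the direction of the footprints. That of replicate 5, in the second batch, held 214 CPM and lay within the range at 25 mM. With the shallow libraries included, the RNA log2 fold change was 0.88 (SE 0.52) in the first batch and -0.19 (SE 0.24) in the second. The RNA change was not called with all libraries (0.33, SE 0.31, adjusted p = 0.379) or without the 5 (0.91, SE 0.37, adjusted p = 0.0558).

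Ccne2 had 45.9, 64.2 and 113 RNA CPM at 25 mM, against 19.3 to 80.1 CPM in the deeper libraries at 5.5 mM and 172 to 387 CPM in the shallow ones, and was not called in either fit (-1.39, adjusted p = 0.0124, and 0.50, adjusted p = 0.103). Ccnd3 had 14.9, 18.5 and 23.0 CPM at 25 mM, against 6.84 to 21.2 CPM in the deeper libraries and 1.01 to 4.89 CPM in the shallow ones, and was called higher with all libraries (1.53, SE 0.45, adjusted p = 0.00891) but not without the 5 (0.52, SE 0.21, adjusted p = 0.0514).

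Cdk2 had 20.6, 24.8 and 27.5 RNA CPM at 25 mM, against 4.31, 11.1 and 29.0 CPM at 5.5 mM, and Cdk4 had 170, 179 and 194 CPM at 25 mM, against 19.3, 27.4 and 221 CPM at 5.5 mM. Neither was called with all libraries (adjusted p = 0.0118 and 0.0397) or without the 5 (adjusted p = 0.357 and 0.740). Cdk6 was near the limit of detection, with 0.29 to 0.63 CPM at 25 mM, against 0 to 0.46 CPM at 5.5 mM. Cdkn1b had 151, 186 and 262 CPM at 25 mM, against 23.0, 52.2 and 175 CPM at 5.5 mM, and was not called with all libraries (1.31, SE 0.41, adjusted p = 0.0116) or without the 5 (0.33, SE 0.17, adjusted p = 0.110). Cdkn1a had 47.7, 55.5 and 67.7 CPM at 25 mM, against 33.5, 56.0 and 79.0 CPM at 5.5 mM, with a change of -0.02 (SE 0.20, adjusted p = 0.928).

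E2f1 was called lower with all libraries, at 44.6, 53.7 and 71.7 RNA CPM at 25 mM, against 65.0, 89.8 and 182 CPM at 5.5 mM (-0.85, SE 0.20, adjusted p = 0.00170). In 7 of 8 libraries at 25 mM it lay below every library at 5.5 mM. Without the 5 libraries the change was -0.37 (SE 0.11, adjusted p = 0.0129), which missed the threshold.

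Translation efficiency (TE) is the ratio of footprints to RNA of a gene and was tested over all 32 libraries as the difference between the glucose effects on footprints and on RNA, with calls under an adjusted p of 0.1. Of the 44 genes tested, 10 were higher at 25 mM and 19 lower, beside 31.2% and 28.6% of all 8637 genes. Without the 5 shallow RNA libraries and the RPF library labelled 25 mM replicate 8, 7 were higher and 16 lower of 45 tested, beside 27.4% and 26.3% of all genes. The median log2 TE change was -0.67 with all libraries, against -0.10 for all genes, and -0.19 without the 6 libraries, against 0.01. Of the 29 genes called with all libraries, 18 were called in the same direction in both fits and 2 were called in opposite directions, Pola1 and Rrm1. Scaling by library size gave 2 higher and 24 lower, with all genes at 1147 higher and 4208 lower, against 2697 and 2473 with TMM. TE shares its RNA and footprint counts with the comparisons above and is not independent of them.

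Genes with lower TE in both fits included several whose RNA, with all libraries, was higher while their footprints were not. The log2 TE of Cdc6 in each culture was -0.16 at the lowest, 0.49 at the median and 0.90 at the highest at 25 mM, against 0.96, 1.26 and 1.76 at 5.5 mM, and the groups did not overlap. Its change was -0.86 (SE 0.21, adjusted p = 0.00113), and -0.90 (SE 0.22, adjusted p = 0.00259) without the 6 libraries. For Mcm4 the log2 TE was 1.02, 1.58 and 1.78 at 25 mM, against 1.90, 3.53 and 5.01 at 5.5 mM, again without overlap, and the change was -1.91 (SE 0.37, adjusted p = 0.000121), or -1.33 (SE 0.26, adjusted p = 0.000615) without the 6 libraries. Pcna had -0.44, -0.05 and 0.40 at 25 mM, against 0.40, 2.32 and 3.56 at 5.5 mM, with changes of -2.01 (SE 0.40, adjusted p = 0.000190) and -1.22 (SE 0.31, adjusted p = 0.00310).

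Cdkn1b had a log2 TE of -1.05, -0.57 and -0.21 at 25 mM, against -0.42, 1.46 and 2.52 at 5.5 mM. The 3 cultures with deeper RNA at 5.5 mM gave -0.42 to 0.51, and the groups overlapped through the lowest of them. Its change was -1.49 (SE 0.41, adjusted p = 0.00394), and -0.58 (SE 0.17, adjusted p = 0.00938) without the 6 libraries. The TE of Fen1, E2f1, Ccnd2, Lig1 and Rfc2 was called higher at 25 mM in both fits. Fen1 had -0.29, 0.28 and 0.66 at 25 mM, against -0.72, -0.48 and 0.07 at 5.5 mM, with changes of 0.65 (SE 0.21, adjusted p = 0.00998) and 0.66 (SE 0.19, adjusted p = 0.00709).

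For E2f1 the log2 TE was -0.93, -0.43 and 0.35 at 25 mM, against -2.22, -1.14 and -0.53 at 5.5 mM, and it changed by 0.91 (SE 0.23, adjusted p = 0.00197), or 0.43 (SE 0.17, adjusted p = 0.0359) without the 6 libraries. Ccnd2 had -3.17, -0.94 and -0.79 at 25 mM, against -3.49, -2.67 and -0.67 at 5.5 mM. The lowest value at 25 mM was the culture of replicate 8, and the other cultures at 25 mM spanned -1.50 to -0.79. The 3 cultures with deeper RNA at 5.5 mM gave -1.14 (replicate 1), -0.67 (replicate 3) and -2.75 (replicate 5). Of these 3, only that of replicate 5 lay below that span. The TE change of Ccnd2 was 1.37 (SE 0.41, adjusted p = 0.00681), and 0.91 (SE 0.36, adjusted p = 0.0422) without the 6 libraries. In the latter fit the rise therefore rests on 1 culture at 5.5 mM. Cdkn1a was not called in either fit (adjusted p = 0.686 and 0.151).

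**Figure D5:**
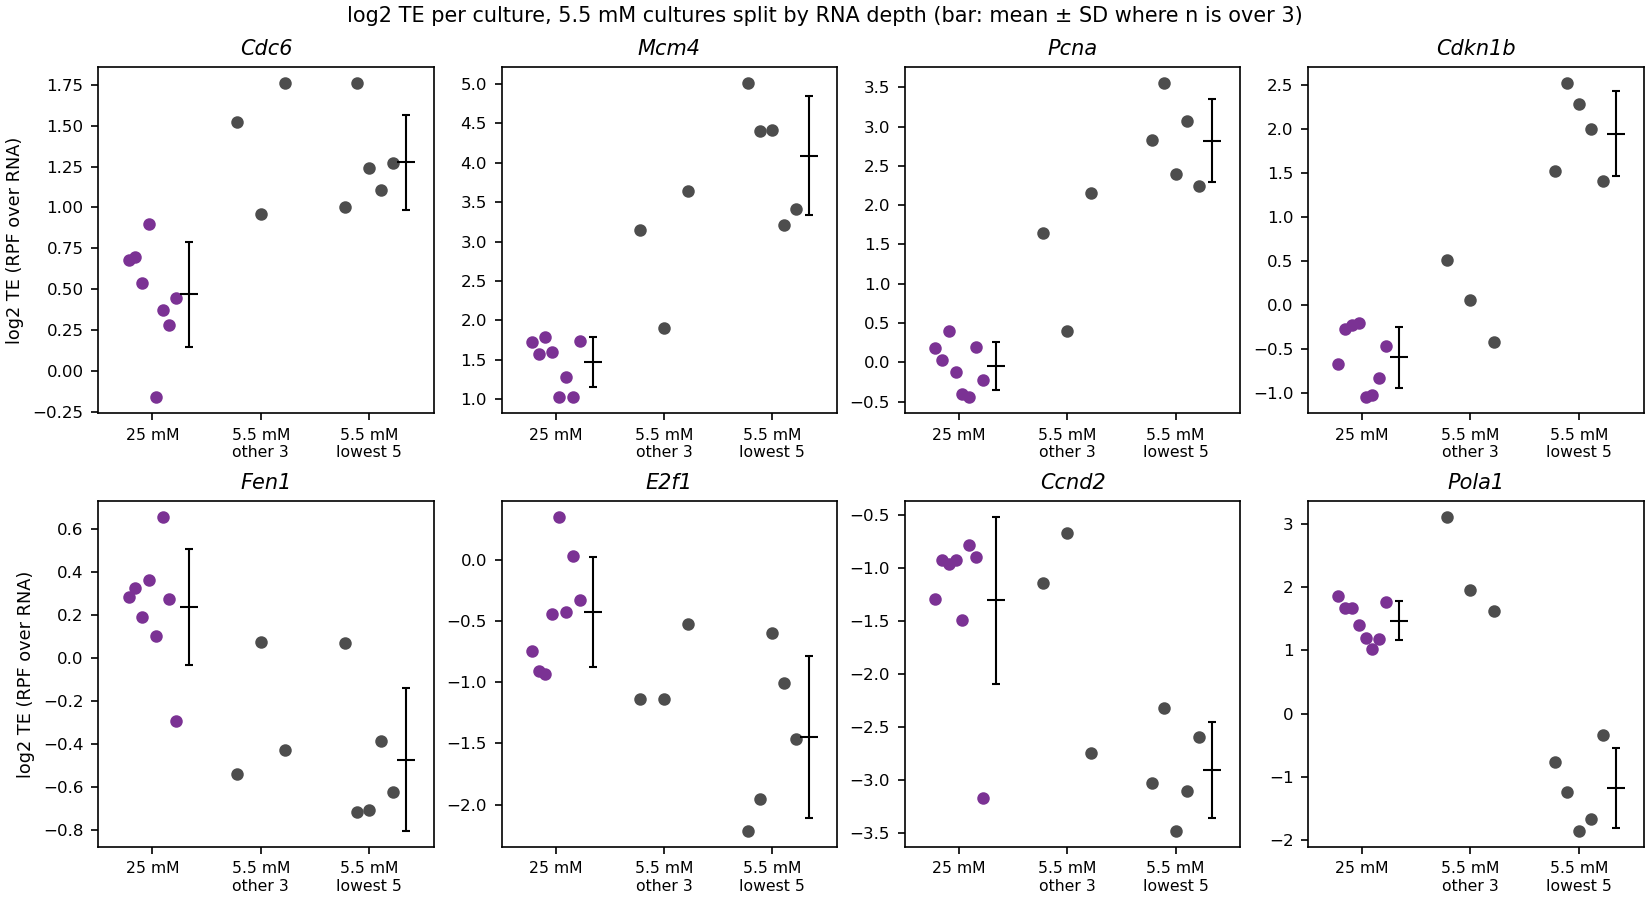
TE of 8 genes in each culture, as log2 of RPF over RNA CPM with a pseudocount of 0.5 CPM, with 25 mM on the left and the cultures at 5.5 mM split by the depth of their RNA library. Cdc6 and Mcm4 lie lower at 25 mM than in every culture at 5.5 mM, whereas Pola1 lies above the 5 cultures with shallow RNA and overlaps with the other 3. Pcna is also lower in every culture at 25 mM, but its groups all but touch (highest 0.4023 at 25 mM, lowest 0.4031 at 5.5 mM).

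A further list of 74 replication and G1/S genes, written from general knowledge, moved in both directions as well. In RPFs 16 of the 66 tested were higher at 25 mM and 10 lower, beside 15.5% and 15.4% of all genes, with a median log2 fold change of 0.02. By p, the leading higher ones were E2f2, an activating E2F factor (0.84, SE 0.17), Rnaseh2c, a subunit of RNase H2 (0.58, SE 0.15), Cks1b, a CDK-binding protein (0.65, SE 0.18), and Ccna2, the S phase cyclin A2 (0.29, SE 0.09). The leading lower ones were Myc, a growth-promoting transcription factor (-0.84, SE 0.20), Dnmt1, the maintenance DNA methyltransferase (-0.29, SE 0.09), and the fork protection genes Clspn (-0.30, SE 0.09) and Timeless (-0.36, SE 0.12). These 8 kept their call without 25 mM replicate 8, whereas without the 5 cultures 2 of 70 were higher (E2f2 and Rnaseh2c) and 1 lower (Myc), beside 6.27% and 4.75% of all genes. The libraries left in had also helped to make the first calls. In RNA 21 of 74 were higher and 15 lower, beside 16.4% and 24.2% of all genes, and 10 and 10 without the 5 shallow libraries, beside 10.4% and 19.2%.

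The glucose effect did not pass a test of its difference between the batches in any of these genes at an adjusted p under 0.05 (edgeR's test of the interaction). Nor did any gene at all, with 0 of 12365 in RNA and 0 of 8709 in RPFs. The SE of the difference reached 1.37 (Rpa3 in RNA), so the result does not show that the batches were alike. In RPFs 1 of 44 genes, Mcm7, had an unadjusted p under 0.05, and in RNA 2 of 46, Cdk2 and Gins2.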

How the data were processed

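RPFs and polyadenylated RNA were measured in 16 MIN6 cultures. The authors deposited raw counts per gene in 1 table for each library type. According to the study's methods, trimmed reads were aligned to the mouse genome (Ensembl annotation) with the XPRESSyourself pipeline, ribosomal RNA and duplicate reads were removed, and reads were counted on the exons or truncated coding sequence of the longest transcript of protein-coding genes. Removal of duplicates can lower the counts of abundant, short footprints more than those of others. Which of the count options served which library type, whether counting used strand, and the aligner's version are not given in the sources used here. Symbols were found for 21826 of 21945 identifiers in the RNA table and for 21808 of 21927 in the RPF table.

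Counts were tested with edgeR 4.0.16 (R 4.3.3, limma 3.58.1, DESeq2 1.42.0 for alternatives), after filterByExpr with the glucose groups and TMM within each library type, with batch as a covariate. TE was tested in a single model of all 32 libraries, as the difference of the glucose effect between library types, with batch within type and scaling over the genes shared by both types. RNA was called at an adjusted p under 0.01, and RPFs and TE at one under 0.1, as in the study. SEs were taken from the F statistic. edgeR's Poisson bound raised the p of E2f1 and Mcm10 in RPFs, which therefore does not follow from their SE. Figures were drawn with Python 3.11.15 and matplotlib 3.10.9. The tests were tried on simulated counts.

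Members and lists were chosen with earlier results of these data known. The filter was first run with the design matrix, and TE scaling was run in 4 versions. The versions kept are those that gave the same numbers of genes tested and called as an earlier analysis of these files, and the others are among the alternatives. Lowest, median and highest levels are given for every gene called in RPFs, for each measured cyclin, CDK, CDK inhibitor and E2f1, and for up to 8 genes called in RNA with the smallest p and the same sign without the 5 shallowest libraries. Orc1, Rfc2, Rfc4, Rfc5 and the RNA of Rrm2, Ccne1, Pola1, Rrm1 and Cdc6 beside its footprints were added after their values were seen, as were the genes shown for TE. Samples were not treated as paired by replicate number, since not every same-numbered pair of libraries correlated over 0.1. No column of sample values was left unused (0). Alternatives covered scaling, filter, test, batch, block and the libraries that stood apart.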

Additional observations from a re-analysis of the deposited data

Results flagged for a closer look

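Of 110 groups of 8 libraries examined for a sample far from the others, 1 held such a sample, where chance alone gives about 1 in 20. The footprint level of Ccnd2 in the library labelled 25 mM replicate 8 was 19.7 CPM, from 14 counts, against 59.9 to 115 CPM in the other 7 libraries at 25 mM. This library also lay nearer to the 5.5 mM mean in 20 of 21 called genes of this set, and the cause was not tested.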

How the results depend on the processing

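The alternatives covered scaling, the filter, the batch term, a replicate block, the test, each batch alone and the libraries that stood apart. Counts of called genes moved by over 1.5 times as follows. In RNA (10 higher, 8 lower), the first batch alone gave 0 and 0 (8 of these genes and 3526 of all genes had an unadjusted p under 0.05 in edgeR's test), leaving out the 5 shallowest libraries 5 and 4, library size scaling 2 lower and the replicate block 4 lower. The first batch alone called 0 of all 12470 genes. Without the 5 libraries all genes split into 1342 higher and 2480 lower, and with library size scaling into 2175 and 1342. In RPFs (6 higher, 14 lower), the second batch alone gave 0 and 1, or 8 lower without 25 mM replicate 8, and leaving out the 5 cultures gave 2 and 2. Among all genes, the second batch gave 197 higher and 94 lower, or 787 and 761 without replicate 8. Leaving out the 5 cultures gave 610 and 462. In TE (10 higher, 19 lower), library size scaling gave 2 higher, and the first batch alone 1 and 0. Among all genes, library size scaling gave 1147 higher and 4208 lower, and the first batch alone 829 and 24 of 10302. Library size scaling moved the median TE change by -0.83, and DESeq2's size factors by 0.14. With 8 per group, replicates were not left out in turn, and the one library left out alone was the RPF library labelled 25 mM replicate 8.

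The cultures were not treated as paired by replicate number, since not every same-numbered pair correlated over 0.1: the pairs correlated at -0.17 to 0.16 in RNA (2 of 8 over 0.1) and at 0.008 to 0.47 in RPFs (4 of 8, those of replicates 1 to 4, with 6 of 8 nearest to their own number, a hint of shared number in RPFs). With the replicate block, RNA gave 13 higher and 4 lower, RPFs 7 and 15, and TE 10 and 22. Among all genes, the block gave 2111 higher and 1906 lower in RNA, 1499 and 1539 in RPFs, and 2341 and 3033 in TE.

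Some log2 fold changes turned their sign, and the cause was not tested. Without the 5 RNA libraries, RNA gave 0.50 for Ccne2, 0.24 for Mcm3, 0.14 for Pola1, 0.19 for Rrm1, -0.030 for Mcm7 and -0.017 for Mcm6, and TE, also without 25 mM replicate 8, gave -0.16 for Ccne2, -0.23 for Pole, -0.59 for Mcm3, -0.60 for Pola1 and -0.47 for Rrm1. With library size scaling, RNA gave 0.68 for Cdkn1a, 0.076 for E2f1, 0.49 for Mcm3, 0.12 for Pold1 and 0.68 for Fen1, and TE -0.71 for Cdkn1a, -0.16 for E2f1, -0.17 for Pole, -0.89 for Mcm3, -0.72 for Pold1, -0.26 for Fen1 and -0.79 for Gins3. With no filter, RNA gave 0.14 for Cdkn1a and 0.062 for Fen1, and TE -0.12 for Cdkn1a, -0.044 for Pold1 and -0.089 for Gins3. RNA of Cdkn1a was 0.036 with the block, 0.15 in the first batch (TE -0.068) and 0.0020 with the filter set by the design matrix, and RNA of Ccnd2 was -0.19 in the second batch. In RPFs, Cdkn1a was 0.0063 without 25 mM replicate 8 and 0.054 in the second batch without it, and E2f1 was 0.0076 in the first batch and 0.00064 in the second without replicate 8.

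The filter with the design matrix, run first, and 3 other TE scalings were alternatives chosen after seeing the data. The filter gave 10 higher and 7 lower in RNA, 6 and 14 in RPFs and 10 and 20 in TE, and the scalings 10 higher and 19 or 20 lower in TE. Among all genes, the filter gave 2082 higher and 3056 lower in RNA, 1430 and 1324 in RPFs and 2756 and 2535 in TE. The scalings gave 2486 to 2716 higher and 2459 to 2785 lower in TE. The shallowest RPF library held 363569 counts, which limits the precision of its levels.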
